A study of Mus musculus with 2 samples.

Results

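The 8 transcripts described here are those of the major histocompatibility complex (MHC) class II pathway and its transactivator: H2-Aa, H2-Ab1, H2-Eb1, H2-DMa, H2-DMb1, H2-DMb2, Cd74 and Ciita. They were chosen by symbol, and all 8 were found among the 27998 genes of the count tables of both libraries. The libraries hold single-cell 3′ RNA-seq of F4/80+CD11b+ cells sorted from mouse alveolar bone, the part of the jaw that holds the tooth roots. The control library came from C57/B6 J males 8 weeks old without a device, and the OTM (orthodontic tooth movement) library, titled Case, from males of the same strain and age whose molars had been under force for a week. The sorts gave 1 library per group, and although the methods say that mice were divided at random between the groups, how many were pooled in each library is not stated in the sources used here. No difference between the libraries therefore has a replicate check, and no p-value was computed: intervals in the text are 95% intervals that cover counting error only.

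MHC class II molecules present peptides from endocytosed proteins to CD4+ T cells. The α chain from H2-Aa and the β chain from H2-Ab1 form I-A, and H2-Eb1 encodes the β chain of I-E. In mice of the b haplotype, which C57BL/6 carries, the I-E α chain gene H2-Ea is defective, so the I-E β chain is made without its partner. Cd74, the invariant chain, fills the peptide groove of the new molecule until proteases cut it to the short CLIP peptide. The H2-DM heterodimer, formed by H2-DMa with a β chain from H2-DMb1 or H2-DMb2, then exchanges CLIP for peptide. Ciita encodes the coactivator that joins the RFX, CREB and NF-Y factors on the X and Y boxes of class II promoters. Dendritic cells and B cells carry class II constitutively, macrophages express it mainly after interferon-gamma, and neutrophils carry little.

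After filtering, 2835 control cells with 14493851 UMIs (unique molecular identifiers, each counting 1 captured transcript) and 2052 OTM cells with 16472699 UMIs remained, with medians of 3998 and 6861.5 UMIs per cell. Levels are counts per 1000000 UMIs (CPM), from the UMIs summed over a set of cells. The labels call the cells macrophages, but clusters with neutrophil or granulocyte progenitor markers held 44.9% of control and 51.1% of OTM cells, and Adgre1, which encodes F4/80, had a UMI in 19.96% and 26.9% of all cells. Monocyte and macrophage-like clusters held 1529 and 1004 cells with medians of 4372 and 7833 UMIs. A control cluster of 33 cells led by Cxcl9, Ly6i, Ccl5 and Gbp2 met too few markers to be named, and OTM cluster 0 (538 cells) mixed markers of classical monocytes, nonclassical monocytes and resident macrophages. The libraries shared 6 cell barcodes. The tables hold fewer barcodes than the cells the study counted after filtering in each group, so shares of cells refer to the barcodes in the tables, and the remaining cells were not analysed here.

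The 6 H2 genes lie together on chromosome 17 between 34119541 and 34316674 (GRCm38) and Ciita on chromosome 16 from 10480059 to 10528418. Promoter windows (250 bases before to 50 after the start site, RefSeq, GRCm38.p6) were found for 5 of the 8 genes, namely H2-Aa, H2-Eb1, H2-DMa, H2-DMb1 and H2-DMb2. The 4 stretches printed here are the upstream parts in which a script found the letters of an X box (AACNGATG) or a Y box (TGATTGG), searched on both strands. They are shown because these boxes are the docking sites of the complex that Ciita joins, with the matches in capitals, 5′ to 3′ on the gene's strand.
H2-Aa, chr17:34287858-34287917, minus strand: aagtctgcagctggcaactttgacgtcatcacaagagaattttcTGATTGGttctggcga
H2-Eb1, chr17:34305762-34305821, plus strand: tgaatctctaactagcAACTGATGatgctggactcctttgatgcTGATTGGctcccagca
H2-DMb1, chr17:34153084-34153143, plus strand: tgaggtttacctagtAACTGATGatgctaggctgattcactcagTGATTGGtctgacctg
H2-DMb2, chr17:34145113-34145172, plus strand: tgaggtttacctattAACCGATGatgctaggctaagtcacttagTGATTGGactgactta

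H2-Eb1 had 20 bases between the boxes, and H2-DMb1 and H2-DMb2 had 21. H2-Aa held the Y box letters alone, and neither of the 2 windows of H2-DMa held either box. Of 32851 promoter windows of the same length, 2.32% held the X box letters, 7.82% the Y box letters, 0.186% both, and 0.0457% (15 windows) an X box at most 30 bases before a Y box. A match of letters is a description of the window and no evidence of binding. The H2-DMb1 and H2-DMb2 transcripts were identical at 94.4% of 1255 aligned bases, and at 73.5% of 279 aligned bases in the last 300, where 3′ reads fall. How the counting divided reads from their identical stretches was not tested.

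The class II transcripts were lower in the OTM library. The 7 transcripts other than Ciita summed to 5445 CPM in control and 2426 CPM in OTM cells, a ratio of 0.446 (0.440 to 0.451). Of the 7 members with at least 50 UMIs, 6 were at least 1.5-fold lower in the OTM library, H2-DMb2 was not, and none was 1.5-fold higher. Among all 9409 genes with at least 50 UMIs, 18.4% were at least 1.5-fold lower and 4.58% at least 1.5-fold higher. The median log2 ratio was -1.05 over these 7 members and -0.20 over all genes. Scaling by TMM in place of total UMIs raised the log2 ratio of every gene by 0.23. This put the sum at 0.521 and left 5 of the 7 members past 1.5-fold. The share of all genes past 1.5-fold was not computed with TMM.

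H2-Eb1, the I-E β chain, had the lowest OTM over control ratio of the 7, at 0.285 (0.267 to 0.303), with 274 CPM in control and 78.0 CPM in OTM cells. H2-Ab1, the I-A β chain, was at 997 and 359 CPM, a ratio of 0.360 (0.349 to 0.371). H2-Aa, the I-A α chain, was at 974 and 469 CPM, a ratio of 0.482 (0.468 to 0.495). Over all cells the intervals of the 3 presenting chains did not overlap, so the chains differed between these 2 libraries by unequal factors there.

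Cd74, which lies on chromosome 18 from 60803848 to 60812652 (GRCm38), was at 2880 and 1346 CPM, a ratio of 0.467 (0.460 to 0.475). H2-DMa was at 184 and 91.7 CPM, a ratio of 0.498 (0.467 to 0.531), and H2-DMb1 at 115 and 66.4 CPM, a ratio of 0.575 (0.533 to 0.621). H2-DMb2 was at 21.0 and 16.9 CPM, a ratio of 0.805 (0.681 to 0.9499), and the H2-DMb1 and H2-DMb2 reads together had a ratio of 0.611. Ciita had 19 UMIs in control and 5 in OTM cells, a ratio of 0.231 (0.0676 to 0.641), which is too few UMIs for a call of 1.5-fold.

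**Figure D1:**
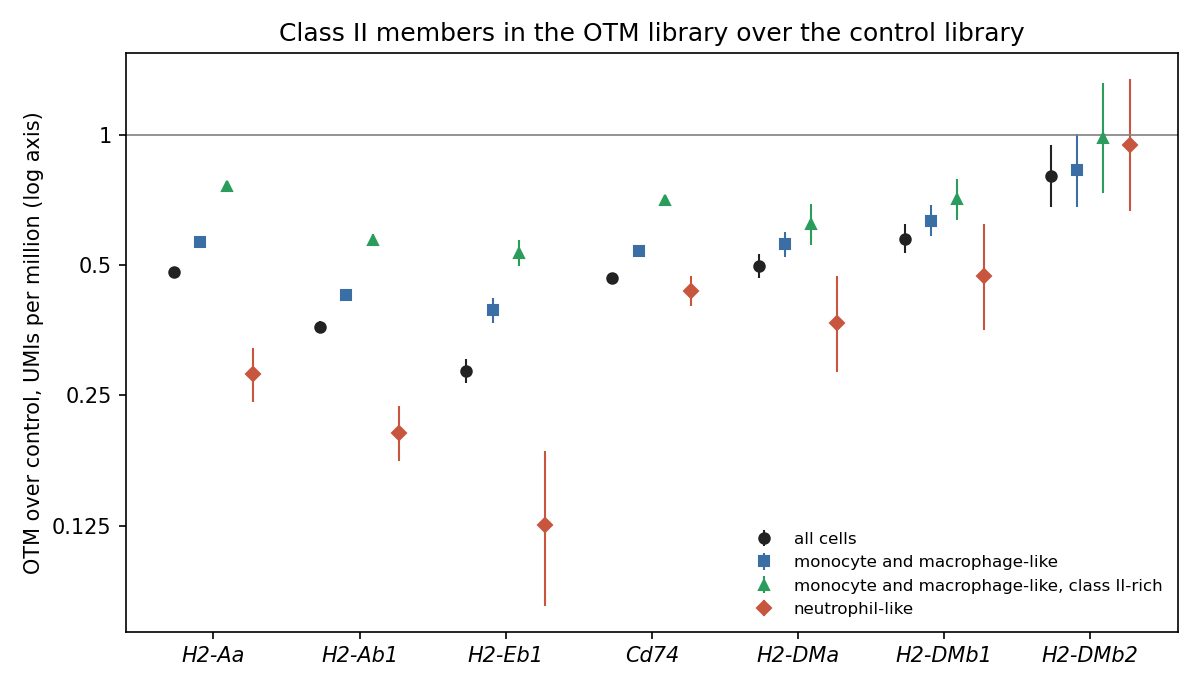
OTM over control ratio of the CPM of 7 members on a log axis, with bars for the 95% interval of counting error (1 library per group). Ratios are over all cells, monocyte and macrophage-like cells, those of them marked class II-rich, and neutrophil-like cells. The mark class II-rich here stands for at least 10 UMIs of H2-Aa, H2-Ab1, H2-Eb1 and Cd74 of 1500. H2-Eb1 is lowest of the 7 members with at least 50 UMIs, at 0.285 over all cells, and H2-DMb2 highest at 0.805.

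Within the monocyte and macrophage-like clusters the sum of the 7 was 8231 CPM in control and 4288 CPM in OTM, a ratio of 0.521 (0.514 to 0.528), where 18.5% of 8479 genes were at least 1.5-fold lower and 5.59% higher. Again 6 of 7 members passed 1.5-fold, H2-DMb2 being the exception. H2-Ab1 had a ratio of 0.427 (0.413 to 0.440) and H2-Eb1 0.394 (0.368 to 0.421), and here these 2 intervals overlapped. H2-Aa was at 0.566, Cd74 0.539, H2-DMa 0.559 and H2-DMb1 0.634. H2-DMb2 had 0.829 with an interval (0.683 to 1.01) that included equal levels. At a clustering resolution of 1.0 the class ratio was 1.11, above 1. In that clustering 70.3% of control and 48.6% of OTM class II UMIs lay in clusters named neither monocyte and macrophage-like nor neutrophil-like, so the ratio describes the remainder.

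Class II UMIs were held by few cells in both libraries. After each cell was thinned to 1500 UMIs, the 10% of cells with the most held 87.6% of the class II UMIs in control and 92.9% in OTM. The same 10% share was 25.3% and 24.1% for B2m, the light chain of class I found on nearly every cell, and 36.2% and 37.1% for Actb. Cells with at least 10 class II UMIs of 1500, called class II-rich, made up 12.7% of control cells (360 cells, 11.5 to 14.0) and 7.31% of OTM cells (150 cells, 6.22 to 8.52), and held 91.7% and 89.2% of the class II UMIs. In the neutrophil-like cells, which should hold little class II, 1.02% and 0.668% of cells reached 10. Without thinning the shares over all cells were 16.8% and 11.5%.

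Among monocyte and macrophage-like cells, thinned class II counts spread without a gap at 10: the control library had 32 cells at 7 to 9 UMIs and 29 at 10 to 12 over all groups, and the OTM library 12 and 16. Counts of 0 were found in 32.2% of control and 50.9% of OTM monocyte and macrophage-like cells. Cells with 100 or more made up 4.51% and 1.69%. Cells with at least 10 made up 20.9% (319 cells) and 14.2% (143 cells).

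**Figure D2:**
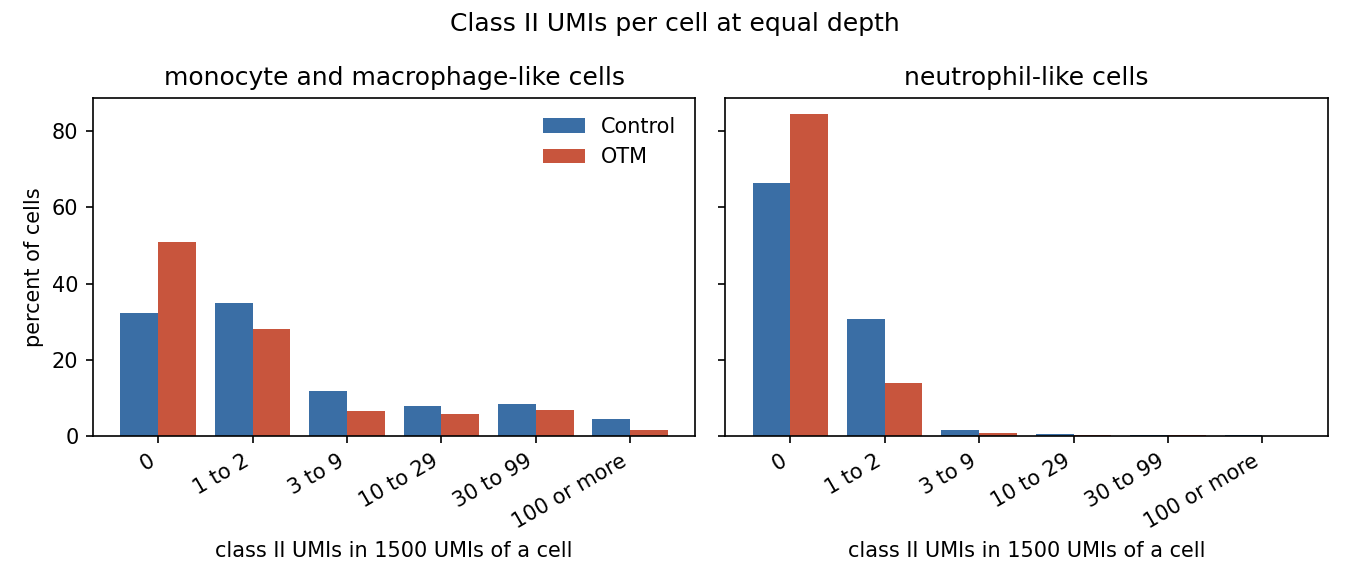
Share of cells (percent) in bins of the summed class II UMIs per cell, each cell thinned to 1500 UMIs. Monocyte and macrophage-like cells (1529 control and 1004 OTM) are at left and neutrophil-like cells at right. At left the bin at 0 holds 32.2% of control and 50.9% of OTM cells, and the bin of 100 or more 4.51% and 1.69%.

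The OTM library held a smaller share of class II-rich cells and less class II within them. For this, cells were called presenting-rich at 10 or more UMIs of H2-Aa, H2-Ab1, H2-Eb1 and Cd74 of 1500, and presenting-poor at 2 or fewer. The sum of the 7 had an OTM over control ratio of 0.683 in the presenting-rich monocyte and macrophage-like cells (307 control, 141 OTM) and 0.601 in the presenting-poor ones (1100 and 816). Since these cells were chosen by 4 of the transcripts summed, both ratios are descriptions. Of the transcripts outside the choice, H2-DMa was at 0.622 and H2-DMb1 at 0.710 in the presenting-rich cells, whereas H2-DMb2 was at 0.987 (0.735 to 1.32).

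To set the libraries on one grouping, cells of both were clustered together without the 8 genes. Classical monocyte-like cells held 38.9% of control cells and 75.9% of the control class II UMIs, and 36.0% of OTM cells with 63.4% of the OTM class II UMIs. Their class II sum was 12090 CPM in control and 4505 CPM in OTM, a ratio of 0.373 (0.367 to 0.378). Cells with dendritic or B cell markers, described below, were not left out of the joint groups. Unnamed joint clusters held 2.55% of the control class II UMIs, against 10.1% in the unnamed cluster of 33 cells of the control library clustered alone. Cells of the latter therefore also lie in named joint groups. Class II-rich cells were 280 of 1103 classical monocyte-like cells in control (25.4%) and 101 of 739 in OTM (13.7%). In nonclassical monocyte-like cells the sum was 5075 and 3042 CPM, a ratio of 0.5995, with 14.6% and 12.96% of cells rich.

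Resident macrophage-like cells, led by the C1q genes, had about equal class II sums in the libraries, with members on both sides. Their class II sum was 20196 CPM in 64 control cells and 20684 CPM in 31 OTM cells, a ratio of 1.02 (0.991 to 1.06), with 59.4% and 64.5% of cells rich. H2-Aa was 1.29 times the control level there (1.20 to 1.38), Cd74 was at 0.988 (0.944 to 1.03), H2-Ab1 at 0.920 (0.852 to 0.993) and H2-Eb1 at 0.853 (0.735 to 0.989). That this group differs from the classical monocyte-like cells was not tested, since each is a set of cells from the same 2 libraries. The group held 2.26% of control and 1.51% of OTM cells and 10.9% and 15.4% of the class II UMIs.

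Cycling classical monocyte-like cells were low in class II, at 519 and 847 CPM, with 0 of 201 control and 1 of 113 OTM cells rich. A count of 0 among 201 cells allows a share of up to 1.49%. The OTM over control ratio of 1.63 (1.501 to 1.78) rested on the 1 rich OTM cell, which held 816 class II UMIs of its 13131. Without that cell the ratio was 0.586 (0.523 to 0.656). Mature neutrophil-like cells had a ratio of 0.197 and immature neutrophil-like cells 0.420, with H2-Aa at 133 and 41.5 CPM in control. The mature value of H2-Aa came from 253 UMIs, of which 2 cells held 89 and 86. In the mature group 3 of 656 control cells and 1 of 543 OTM cells were class II-rich and held 45.7% and 12.2% of its thinned class II UMIs. Without them the ratio was 0.3803 (0.324 to 0.445).

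**Figure D3:**
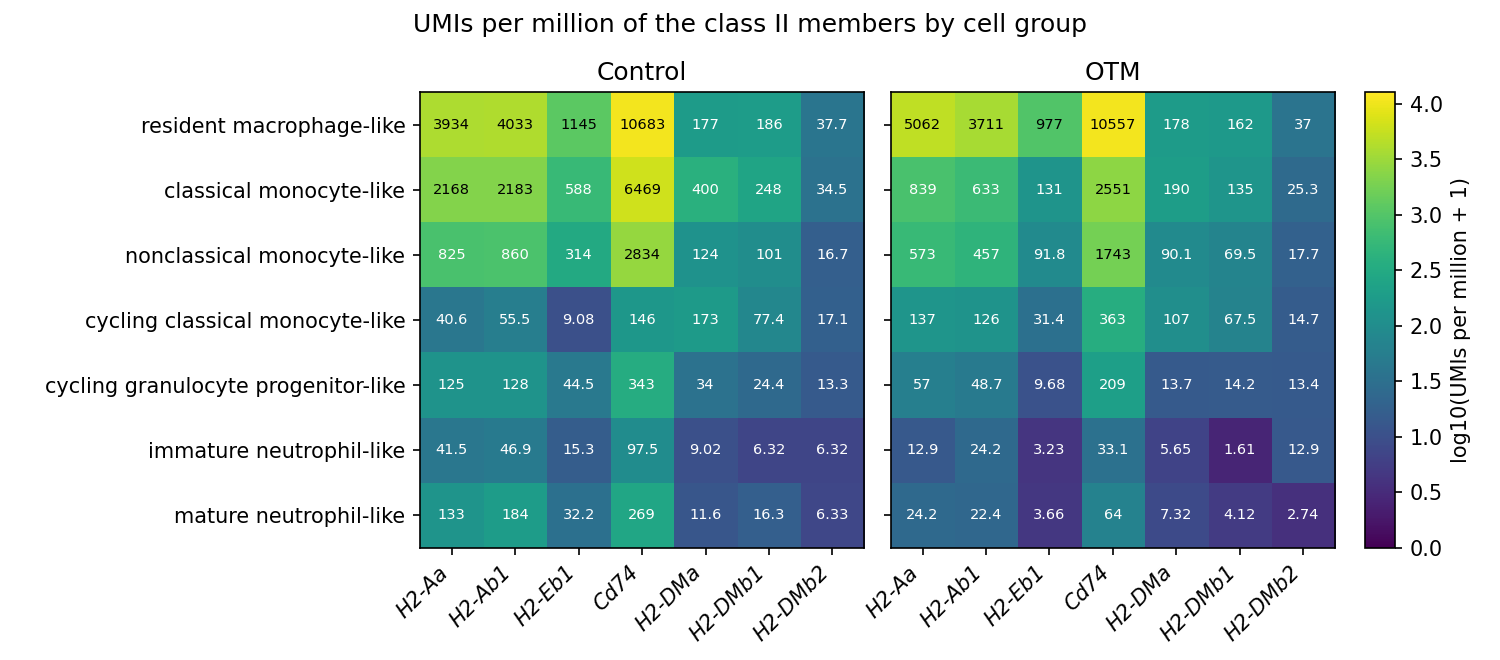
CPM of 7 members (colour, log10 of the value plus 1, with the value printed) in 7 cell groups of a clustering of both libraries together, control at left and OTM at right. Resident macrophage-like cells have H2-Aa at 3934 and 5062, and classical monocyte-like cells at 2168 and 839. In cycling classical monocyte-like OTM cells the values of H2-Aa, H2-Ab1, H2-Eb1 and Cd74 rest on 1 cell. In mature neutrophil-like control cells 2 cells hold 89 and 86 of the 253 H2-Aa UMIs.

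Cells with transcripts that mark other antigen-presenting cells held a share of these UMIs. Cells with UMIs of at least 2 conventional dendritic markers, such as Flt3, Cd209a and Clec10a, were 68 in control and 26 in OTM, and they held 28.9% and 16.96% of the class II UMIs at 59133 and 24791 CPM. Macrophages can express Clec10a too, and whether these cells are a separate cell type was not tested. Cells with at least 2 B cell markers were 19 and 7, at 5704 and 8407 CPM, and cells with at least 2 plasmacytoid dendritic markers 7 and 2, at 1524 and 1638 CPM. In control, 18 of the 19 B cell marker cells and all 7 plasmacytoid ones lay in the resident macrophage-like cluster of the library clustered alone. Without the dendritic and B cell marker cells the OTM over control ratio of the class II sum was 0.512 over all cells and 0.611 in monocyte and macrophage-like cells. The unnamed control cluster of 33 cells was at 44899 CPM, and 28 of its cells were rich. It held 10.1% of the control class II UMIs, and the OTM library clustered alone had no unnamed cluster.

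Across the thinned monocyte and macrophage-like cells (1529 control and 1004 OTM), the 2 I-A chains followed each other: Pearson's r between H2-Aa and H2-Ab1 was 0.926 in control and 0.929 in OTM. Between H2-Aa and Cd74 it was 0.884 and 0.876. It was lower between H2-Aa and H2-Eb1, at 0.723 and 0.693, and lower again with H2-DMb1 (0.555 and 0.480), H2-DMa (0.365 and 0.348) and H2-DMb2 (0.174 and 0.177). The cells share a library, and transcripts with fewer UMIs give lower correlations from counting error alone, so the order is a description.

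H2-Eb1 varied against H2-Aa from cell to cell more than H2-Ab1 and Cd74 did. Of the cells with at least 20 H2-Aa UMIs, 195 in control and 99 in OTM, 31 (15.9%) and 22 (22.2%) had no H2-Eb1 UMI, and 0 and 0 lacked H2-Ab1, which allows shares of up to 1.54% and 3.03%. H2-Eb1 as a share of the H2-Eb1 and H2-Aa UMIs of a cell had a 10th percentile of 0%, a median of 16.9% and a 90th percentile of 41.995% in control, and 0%, 14.1% and 24.4% in OTM. The corresponding share of H2-Ab1 ran from 38.9% to 58.4% around a median of 49.0% in control and from 30% to 53.2% around 42.4% in OTM. That of Cd74 ran from 66.3% to 78.4% and from 64.1% to 80.8%.

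In control the cells without H2-Eb1 had a median of 50 H2-Aa UMIs, against 49.5 in the other cells. In OTM their median was lower, 41 against 56. The control cell with most H2-Aa among them had 101 H2-Aa, 105 H2-Ab1 and 241 Cd74 UMIs, and the OTM cell 228, 146 and 452. At a minimum of 50 H2-Aa UMIs, 16 of 98 control and 9 of 53 OTM cells still had none. An H2-Eb1 share under 2% was found in 41 control and 28 OTM cells, a share of 2% to 10% in 21 and 13, and a share of at least 10% in 133 and 58. These limits were chosen after the shares were seen.

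Both kinds of cell were present within the same groups. Of the joint classical monocyte-like cells with at least 20 H2-Aa UMIs, 31 of 152 control and 14 of 67 OTM cells had an H2-Eb1 share under 2%, and 104 and 41 had at least 10%. In resident macrophage-like cells the numbers were 6 and 15 of 22 in control and 7 and 9 of 16 in OTM. In nonclassical monocyte-like cells they were 0 and 9 of 10 and 5 and 6 of 12. The unnamed cluster of 33 cells belongs to the control library clustered alone, and its cells are also counted in the joint groups. In it 2 of 21 cells were under 2% and the median share was 42.3%. Shares above 30% were found in 42 control cells, 23 of them monocyte and macrophage-like, and in 2 OTM cells. Control cells under 2% and those at 10% or more had H2-Aa at 14117 and 11419 CPM, H2-DMa at 925 and 783 CPM and H2-DMb1 at 736 and 812 CPM. Clec10a, a lectin of dendritic cells and macrophages, was at 508 and 228 CPM. In OTM the order was the other way for H2-Aa (7413 and 8199 CPM) and H2-DMa (355 and 510 CPM). For H2-DMb1 it was the same as in control (338 and 592 CPM). Clec10a was at 99.5 and 110.4 CPM in OTM, with overlapping intervals. The control intervals of H2-DMa and of H2-DMb1 overlapped too. Cd209a was higher in the cells under 2% in both libraries, at 433 and 339 CPM in control, where the intervals overlapped, and at 192 (144 to 250) and 62.8 (43.2 to 88.2) CPM in OTM.

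**Figure D4:**
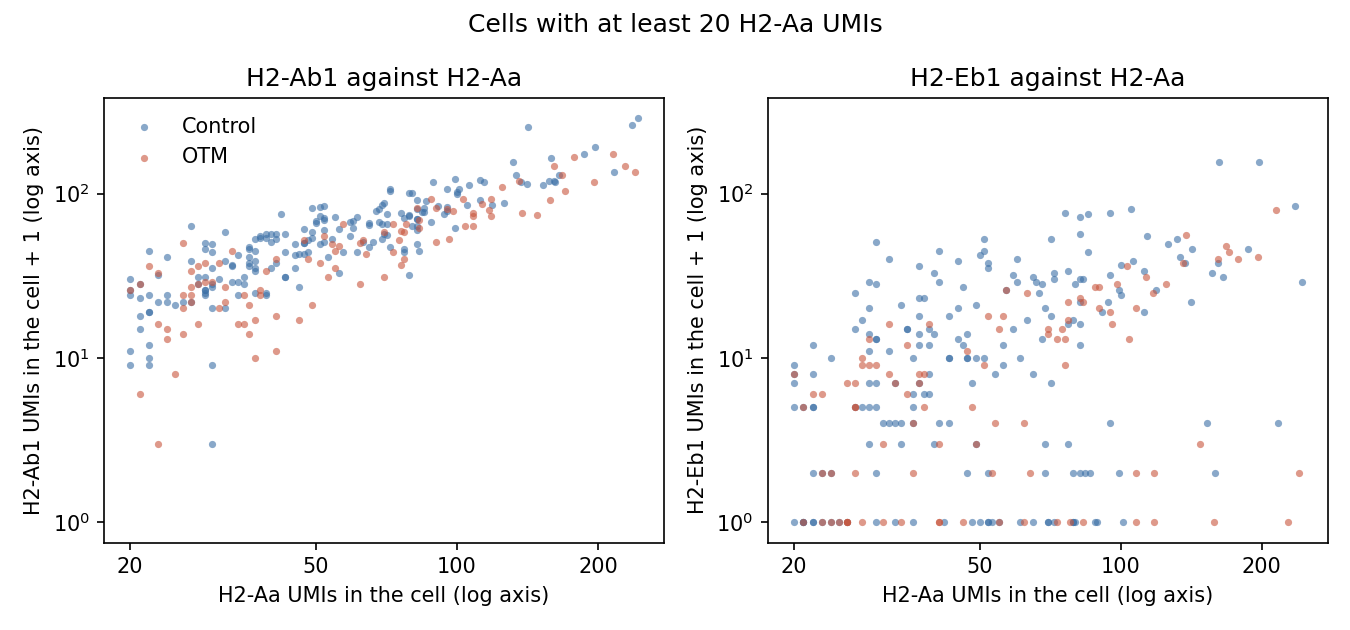
H2-Ab1 (left) and H2-Eb1 (right) UMIs against H2-Aa UMIs per cell on log axes, from deposited counts. Each point is a cell with at least 20 H2-Aa UMIs (195 control, 99 OTM). The lowest points at right are the 31 control and 22 OTM cells with no H2-Eb1 UMI, drawn above 0 because the axis is logarithmic. They extend to 101 and 228 H2-Aa UMIs.

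In control, H2-DMa was less restricted to few cells than the presenting chains. In thinned monocyte and macrophage-like cells it had a UMI in 33.4% of control and 20.2% of OTM cells, against 26.4% and 16.6% for H2-Aa, 20.5% and 13.9% for H2-DMb1 and 3.92% and 4.58% for H2-DMb2. The 10% of all control cells with most H2-DMa held 65.8% of its thinned UMIs, against 94.05% for H2-Aa. In OTM these were 94.7% and 100%, but there 10.7% and 9.94% of cells had a UMI at all, so the share cannot separate the transcripts. Grouped by thinned UMIs of H2-Aa, H2-Ab1, H2-Eb1 and Cd74, the cells at 0 (731 control, 656 OTM) had H2-DMa at 186 and 110 CPM, those at 1 to 2 at 204 and 134, those at 3 to 9 at 270 and 194, and those at 10 or more at 691 and 430 CPM. H2-DMa was thus 3.72 and 3.91 times as high in the top bin as at 0. H2-DMb1 was 9.12 and 7.97 times as high (72.2 and 58.7 CPM at 0, 658 and 467 CPM at 10 or more), and H2-DMb2 4.89 and 5.24 times. For H2-Ab1, which the bins were made from, the ratio was 191 and 318.

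Monocyte and macrophage-like cells at 0 had more H2-DMa than the neutrophil-like cells, taken here as the level of free RNA, which was not measured. That level was not uniform: joint cycling granulocyte progenitor-like, immature and mature neutrophil-like control cells had H2-DMa at 34.0, 9.02 and 11.6 CPM. Among the cells at 0, 53.5% in control and 51.5% in OTM had an H2-DMa UMI, at median depths of 4640 and 7977.5 UMIs. H2-DMa there was 7.28 (6.12 to 8.71) and 9.73 (7.75 to 12.3) times its level in neutrophil-like cells with under 10 such UMIs, and H2-DMb1 4.33 and 5.65 times. H2-DMb2 was 1.63 (1.12 to 2.36) and 1.46 (1.06 to 2.03) times as high. Cd74 was 0.979 and 1.16 times and H2-Aa 0.683 and 0.818 times the neutrophil-like level, but the bins were made from both. Monocyte and macrophage-like cells were taken at 0 such UMIs and neutrophil-like cells at under 10. The ratios of Cd74 and H2-Aa therefore follow in part from the choice of cells and are no comparison with free RNA. Cycling classical monocyte-like cells of each library clustered alone had an H2-DMa UMI in 62.0% and 64.6% of cells, at 172 and 110 CPM, with H2-Aa at 44.99 and 18.7 CPM.

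By joint group, H2-DMa had a UMI in 69.2% of control classical monocyte-like, 50% of resident macrophage-like and 28.7% of nonclassical monocyte-like cells. In OTM, which was more deeply sequenced, the shares were 60.8%, 61.3% and 43.2%. As levels, H2-DMa was at 400 CPM in control classical monocyte-like and 177 CPM in resident macrophage-like cells, whereas H2-Aa was at 2168 and 3934 CPM. The order of these 2 groups was thus opposite for H2-DMa and H2-Aa in control. In OTM cells H2-DMa was at 189.8 and 178 CPM in the 2 groups, so this order was not seen there beyond the intervals (179 to 202 and 134 to 233).

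**Figure D5:**
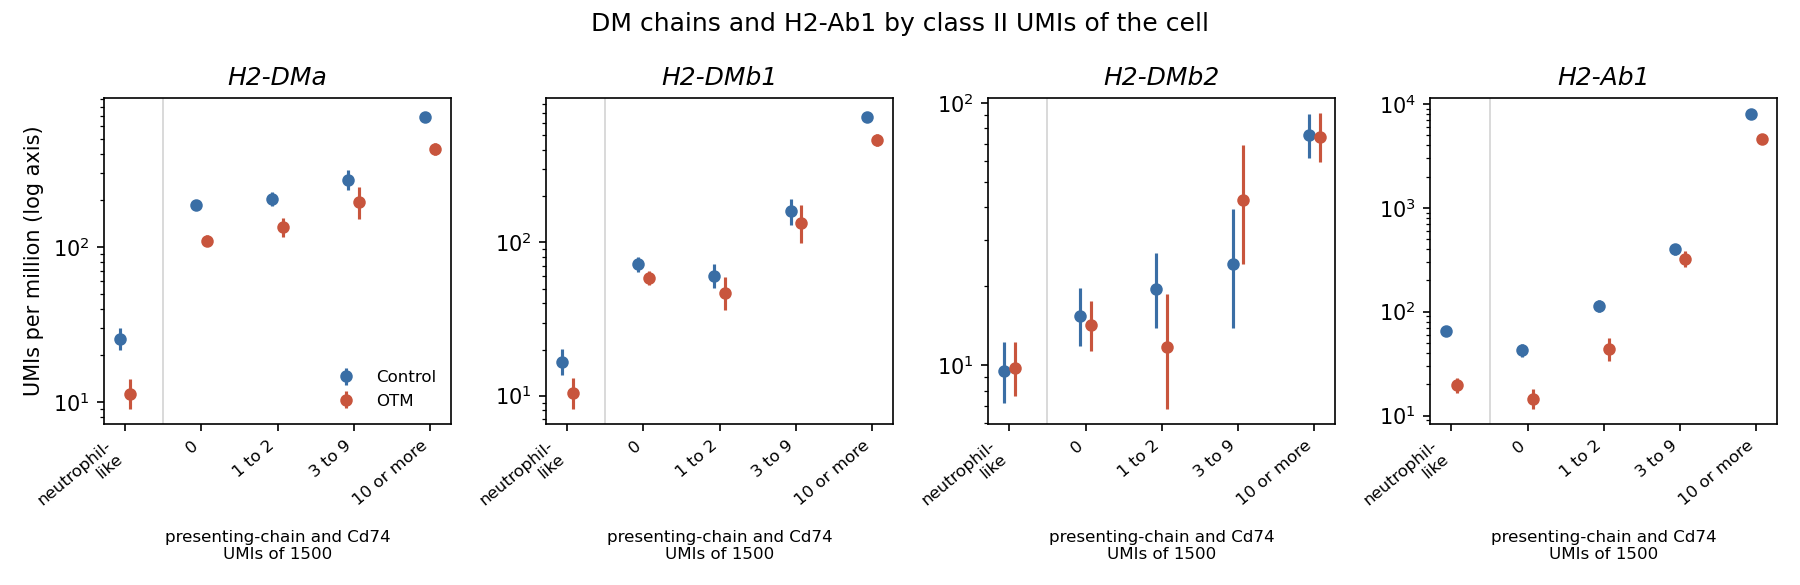
CPM of the H2-DM chains and H2-Ab1 in monocyte and macrophage-like cells, by the thinned UMIs of H2-Aa, H2-Ab1, H2-Eb1 and Cd74 per cell. Neutrophil-like cells with under 10 such UMIs stand beside them, and bars give the 95% interval of counting error. H2-DMa is at 186 in control cells at 0 and at 25.5 in neutrophil-like cells.

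Ciita UMIs lay almost wholly in presenting-rich cells. All 16 control cells with a Ciita UMI were presenting-rich, and before thinning they had 28 UMIs of the presenting chains and Cd74 at the lowest, 278.5 at the median and 1266 at the highest. Of the 5 OTM cells 4 were presenting-rich, the exception having 3 such UMIs and the next 156. The 348 presenting-rich control cells had Ciita at 11.6 CPM (6.98 to 18.1), and the other 2487 had none, which allows up to 0.233 CPM. Taking 3 UMIs over the other cells as what a count of 0 allows, Ciita was 49.6-fold higher in the presenting-rich control cells. This value leaves out the counting error of the 19 UMIs and is not a lower bound. In OTM the 148 presenting-rich cells had 4 UMIs and the other 1904 cells 1, a ratio of 49.98 (4.95 to 2461).

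Of the 16 control cells, 11 were monocyte and macrophage-like, 1 was neutrophil-like and 4, with 7 of the 19 UMIs, were in the unnamed cluster of 33 cells. Dendritic marker cells held 8 of the 19 control and 2 of the 5 OTM Ciita UMIs. All 16 control and all 5 OTM cells also had an H2-DMa UMI. Among all presenting-rich monocyte and macrophage-like cells 87.0% in control and 91.5% in OTM had one. The cells with Ciita had medians of 5843.5 and 7335 UMIs, against 4127 and 7211 in those presenting-rich cells. A link of Ciita with H2-DMa beyond this was not tested. At this depth a cell without a Ciita UMI cannot be read as lacking the transcript.

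Of 38 measured genes of the pathway outside the 8, 2 were at least 1.5-fold higher and 2 lower over all cells, beside 4.58% and 18.4% of all genes. In the lists, 0 of 6 measured genes of the promoter complex (Rfxap, Rfxank, Creb1, Nfya, Nfyb and Nfyc) passed in either direction, with a median log2 ratio of 0.02, and Rfx5 had 32 and 12 UMIs, too few to call. Of the 7 genes of invariant chain and antigen processing, 2 were higher in OTM and none lower: Ctsl, a cathepsin that cuts the invariant chain in some cells, at 2.11 (2.00 to 2.23) times control, and Lgmn, the asparaginyl endopeptidase, at 1.68 (1.57 to 1.80) times. Of the 3 turnover genes 1 was lower, Cd83 at 0.650. It encodes a surface protein that slows the ubiquitin-driven loss of class II. Of the 8 genes of interferon-gamma signalling 1 was lower, Irf8 at 0.538. None of the 5 costimulation and 9 class I genes passed, with B2m at 0.931 and H2-D1 at 1.35.

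In monocyte and macrophage-like cells the lists gave like counts, with Ctsl at 2.35, Lgmn at 1.78 and Irf8 at 0.629 as the only 3 of 38 measured genes past 1.5-fold, beside 5.59% of all genes higher and 18.5% lower. The minor class II genes H2-Oa (32 and 11 UMIs), H2-Ob (15 and 3) and H2-Eb2 (1 and 1) were too low to call in both libraries.

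Presenting-rich and presenting-poor monocyte and macrophage-like cells of the same library differed in the accessory genes. Of the 4 measured costimulation genes, Cd86 (2.43 times the poor level), Cd40 (3.40) and Cd274 (1.60) passed 1.5-fold in control, and Cd86 (1.90) and Cd40 (2.67) in OTM, where Cd80 was lower at 0.504. Among all genes 8.11% were higher and 21.5% lower in the presenting-rich control cells, and 9.54% and 14.6% in the presenting-rich OTM cells. Of 7 antigen processing genes 3 were higher in control, namely Ctss (1.74), Ctsb (1.51) and Lgmn (3.64), and Ctss (1.56) and Lgmn (2.47) were higher in OTM. Cd83 was at 2.40 and 2.76. Of 9 class I genes, H2-K1 (1.51), Tap1 (1.60) and Tap2 (1.76) passed in control, and Tap2 (1.53) and Nlrc5 (2.36), the class I transactivator, in OTM. Of 6 promoter complex genes, Nfyb was lower in control at 0.494 and Creb1 higher in OTM at 1.71. In interferon-gamma signalling, Jak2 at 1.501 in control and Irf1 at 1.54 in OTM passed.

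The 10 genes whose level over the 16 clusters of both libraries was most like the summed class II level were Rgs1 (Pearson's r 0.954), Il21r (0.944), Clec4n (0.935), Cxcl16 (0.924), Sdc3 (0.914), Rhoq (0.909), Adap2os (0.907), Gna13 (0.906), Tmem51 (0.906) and Ly6a (0.901). These are correlations of log2(CPM + 10), and the clusters of a library share its depth. With Spearman's correlation 2 of the 10 were among the first 10. Over the same clusters the r of the members with the sum that holds them was 0.994 for Cd74, 0.992 for H2-Aa, 0.986 for H2-Ab1, 0.969 for H2-Eb1, 0.9104 for H2-DMb1, 0.859 for H2-DMa and 0.804 for H2-DMb2. For Ciita, which is not in the sum, it was 0.667. Ciita was at 1.31 and 0.304 CPM over all control and OTM cells, below the 10 CPM added before the log. Spearman's correlation was 0.878 for Ciita, above H2-DMa (0.844) and H2-DMb2 (0.712) and below the 0.912 or more of the other members.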

How the data were processed

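The authors deposited, for each of the 2 libraries, a table of UMI counts per gene and cell that had not been normalized. Per the labels these were made with Cell Ranger 3.0.0 on mm10, and Seurat 3.0.0 is also named. The 8 genes and all gene lists were chosen with earlier results of these data known. Cells with at least 200 genes and at most 5% mitochondrial UMIs were kept (99.0% of control and 99.7% of OTM barcodes). The methods' wording may also be read as 200 genes per 1000 UMIs, which kept 85.4% and 61.0% and removed deep cells. That reading is an alternative.

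Each library was clustered alone in Seurat 5.3.0 under R 4.3.3 (12 and 8 components, resolution 0.6), and both were also clustered together, with the 8 genes left out of the variable genes. Clusters were named "-like" from marker lists. Other steps used pandas 2.3.3, SciPy 1.17.1 and NumPy 2.4.6 on Python 3.11.15, edgeR 4.0.16 for TMM factors only, and Biopython 1.88 for sequences. Scrublet in scanpy 1.11.5 called 1 control and 6 OTM cells doublets, under 0.5% of cells, so doublets were not removed effectively and cells of mixed type may remain. Coordinates of genes follow GENCODE on GRCm38.

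UMIs were summed over cells and given as CPM with exact Poisson intervals, ratios with exact conditional binomial intervals, and shares with Clopper-Pearson intervals. A gene was called past the fold at 1.5-fold or more with at least 50 UMIs over both sets compared. For shares and per-cell counts each cell was thinned to 1500 UMIs, and since the shallowest cells had 1777 and 2354 UMIs none was left out. Named genes were the 8 members, the pathway lists, the 10 genes most alike over clusters (at least 200 UMIs) and markers. The scripts were tested on simulated data. Alternatives covered filters, doublets, scaling, weighting, thinning and clustering.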

Additional observations from a re-analysis of the deposited data

Results flagged for a closer look

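In the clustering of both libraries together the class II sum went in opposite directions in 2 groups, at 1.63 times control in cycling classical monocyte-like and 0.373 times in classical monocyte-like cells. The difference was not tested. A single OTM cell sets the first value, which was 0.586 without it.

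H2-Aa also went in opposite directions, at 1.29 times control in resident macrophage-like cells (64 control, 31 OTM) and 0.387 times in classical monocyte-like cells. This difference was not tested either.

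Barcodes that the cell filter removed also held class II UMIs. The 28 removed control barcodes had 58, or 457 CPM (347 to 590), with a UMI in 16 barcodes, and the 6 removed OTM barcodes had 4, or 143 CPM (38.9 to 365), with a UMI in 3.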

How the results depend on the processing

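Over 18 results, 100 alternatives were computed. Of these 55 kept the value within the reported interval (for the likeness count, within 1.5 times), 43 moved it outside and 2 turned its direction. Among them were 76 ratios, of which 74 were below 1. The ratios come from the same 2 libraries, and those of the sum and of its members share UMIs, so they are not separate checks. With cells of at least 200 genes per 1000 UMIs, the OTM over control ratio of the class II sum was 0.602 over all cells and 0.582 in monocyte and macrophage-like cells, and that of H2-Aa was 0.656, H2-Ab1 0.489, H2-Eb1 0.389, H2-DMa 0.661, H2-DMb1 0.771 and Cd74 0.630. With TMM scaling these were 0.521, 0.605, 0.563, 0.421, 0.333, 0.583, 0.673 and 0.546 in the same order. With hemoglobin, ribosomal protein and mitochondrial genes left out of the totals, the sums were at 0.430 and 0.498, H2-Aa at 0.464, H2-Ab1 at 0.347 and Cd74 at 0.45045. Members at least 1.5-fold lower numbered 5 of 7 under the first 2 settings and 6 under the third. The share of all genes past 1.5-fold was not computed under these settings, so these counts have no background beside them. H2-DMb1 and H2-DMb2 summed gave 0.611.

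Without dendritic and B cell marker cells the sums were 0.512 and 0.611. In monocyte and macrophage-like cells the sum was 0.540 as a mean over cells, 0.326 with the members among the variable genes (where 77.9% of control and 86.4% of OTM class II UMIs lay in clusters of neither family), 0.454 in the joint clustering and 1.11, above 1, at resolution 1.0. Chosen after the data were seen, adding the unnamed control cluster of 33 cells gave 0.475, and leaving out the resident macrophage-like control cluster 0.541. The classical monocyte-like ratio was 0.0622 with each library clustered alone, where OTM cluster 0 held 89.9% of the OTM class II UMIs under a mixed name, and 0.345 at resolution 1.0, 0.612 with the members among the variable genes (the same clustering) and 0.373 jointly. The cycling classical monocyte-like ratio was 0.613 alone and 1.63 jointly, and the neutrophil-like ratio 0.348 alone (0.436 without its 13 control and 7 OTM class II-rich cells), 0.613 with the members among the variable genes and 0.405 jointly.

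The share of class II-rich cells (12.7% control, 7.31% OTM) was 14.3% and 10.1% under 200 genes per 1000 UMIs, 16.8% and 11.5% without thinning, and 11.4% in control at 1000 UMIs. The share of class II UMIs in the 10% of cells with most was 85.4% and 90.7% under 200 genes per 1000 UMIs, and 92.1% in OTM without thinning. Spearman's correlation kept 2 of the 10 most alike genes. Where no value shows it, the cause of these changes was not tested. No paired analysis was possible because each group has 1 library. The library, the animals, the sort and the force cannot be told apart, and Ciita (24 UMIs) and H2-DMb2 are limited by depth.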

Other observations

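Presenting-rich monocyte and macrophage-like cells were ranked against presenting-poor ones over all genes with at least 50 UMIs, outside the 8 members. These genes were named after their values were seen. In control the 10 highest were Jchain, Mgl2, Cd209a, Mmp12, C1qb, Pf4, Mrc1, C1qc, Ccl12 and Spic, of which 5 were also past 1.5-fold in OTM with enough UMIs. Cd209a, a lectin of monocyte-derived dendritic cells, was 40.7 and 137 times the presenting-poor level in control and OTM. The OTM value (51.6 to 514) rested on 8 presenting-rich cells with 87 UMIs, 30 of them in 1 cell, against 4 UMIs in presenting-poor cells. C1qb, a complement chain made by tissue macrophages, was at 23.6 and 32.97 times the presenting-poor level, and C1qc at 16.5 and 40.2 times. Jchain, the chain that joins secreted antibodies, was 360 times as high in control, but 1 cell held 1431 of its 1439 UMIs. Globin transcripts were lower in the presenting-rich cells of both libraries, with Hba-a1 at 0.0226 and 0.0125 and Hbb-bt at 0.0262 and 0.0173 times the presenting-poor level. In control and OTM the 4 globin transcripts summed to 9180 and 6681 CPM over monocyte and macrophage-like clusters, and 375 and 224 CPM over neutrophil-like ones. Whether cells of the red blood cell line lie among the presenting-poor cells was not tested.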
